A study of Homo sapiens with 6 samples.

Results

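The genes described are 10 components of transforming growth factor beta (TGF-beta) and bone morphogenetic protein (BMP) signalling, taken by name out of 26485 gene symbols in the deposited tables. They are the ligand genes TGFB1, TGFB2, INHBA and BMP4, the receptor genes TGFBR1 and TGFBR2, the inhibitory SMAD gene SMAD7, and the target genes ID1, ID2 and ID3. The choice was by name, with earlier results of these data known. Sequencing of messenger RNA covered PC9-AMG, PC9-BrM4 and PC9, which are human lung cancer lines, with 2 libraries for each line and no treatment beyond ordinary culture. PC9 is a lung adenocarcinoma line that carries a mutant EGFR, and PC9-BrM4 is known from other work as its brain-metastatic derivative, which the labels do not state. The sources used here give neither the meaning of AMG nor whether a derived line is a single clone. The PC9-AMG tables are named EMG although the titles say AMG, and their assignment to PC9-AMG rests on the sample records. Nor do the sources say whether replicates came from separate cultures, so every p-value below measures the spread between these libraries, which may be technical.

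TGF-beta and activin ligands bring together type II and type I receptor kinases at the cell surface, and the type I receptor then phosphorylates SMAD2 and SMAD3. BMP ligands act through related receptors on SMAD1, SMAD5 and SMAD8. Both branches share SMAD4, and SMAD7 blocks the type I receptors of either branch. ID proteins bind basic helix-loop-helix transcription factors and keep them off DNA. BMP signalling is known to induce the ID genes in many cell types, while TGF-beta can raise or lower them depending on the cell. In lung adenocarcinoma, TGF-beta signalling is known for its roles in growth arrest, epithelial-mesenchymal transition and metastasis.

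Levels are given as TPM, a transcript abundance scaled for gene length and to a fixed total in each library. The aligned sequence behind a library was 2.66 to 4.39 gigabases, estimated from the ratio of deposited coverage to deposited FPKM, and read numbers are unknown. Between 13455 and 13764 genes reached 1 TPM in a library. All 7 epithelial markers examined (EPCAM, CDH1, KRT7, KRT8, KRT18, KRT19 and MUC1) passed the filter on low values, with MUC1 the lowest at 15.5 TPM in PC9-AMG, 16.4 TPM in PC9-BrM4 and 29.1 TPM in PC9, while 0 of 6 markers of the lung alveolar lineage did. Among 8 fibroblast markers, COL1A2, DCN, LUM, PDGFRA and THY1 were at 0 in all 6 libraries. Of 5 leukocyte markers (PTPRC, CD14, CD68, CD3E and LYZ), 1 passed the filter. This was CD68, at 40.0 TPM in PC9-AMG, 41.2 TPM in PC9-BrM4 and 49.1 TPM in PC9, called lower in both derived lines than in PC9. A lower level in bulk RNA can come from fewer cells that make a transcript or from less of it per cell, and these cannot be told apart here.

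Of the 10 genes, 9 reached at least 1 TPM in at least 2 libraries and were tested, and they exceeded 1 TPM in all 6. ID2 did not reach that level in any library. PC9-BrM4 differed from PC9 by lower levels only: 6 of the 9 tested genes were lower (ID1, INHBA, TGFB2, TGFB1, BMP4 and TGFBR1) and 0 were higher, in limma's test with a Benjamini-Hochberg adjusted p under 0.05. PC9-AMG differed from PC9 in both directions, with 3 higher (INHBA, ID3 and TGFBR1) and 3 lower (BMP4, ID1 and TGFBR2). Between PC9-AMG and PC9-BrM4, 6 genes were higher in PC9-AMG and 2 were lower. The same test called 46.6% of all genes between PC9-BrM4 and PC9, 55.5% between PC9-AMG and PC9 and 56.1% between PC9-AMG and PC9-BrM4, so calls were common throughout the transcriptome and the 6 calls of 9 in PC9-AMG against PC9 lay close to that background. In PC9-BrM4 against PC9, 23.1% of all genes were called lower and 23.4% higher. In PC9-AMG against PC9 these shares were 27.7% lower and 27.8% higher, and in PC9-AMG against PC9-BrM4 28.1% were higher and 28.0% lower. The median log2 fold change of the 9 genes was -0.39, 0.07 and 0.81 in the 3 comparisons in that order, while the median of all 14195 tested genes lay within 0.01 of 0. Library values did not overlap for 9 of the 9 genes in PC9-BrM4 against PC9, where the same held for 75.2% of all tested genes, for 7 in PC9-AMG against PC9 (79.8% of all) and for 9 in PC9-AMG against PC9-BrM4 (77.5% of all). Both derived lines were set against the same PC9 libraries, so their changes against PC9 are not independent of each other.

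**Figure D1:**
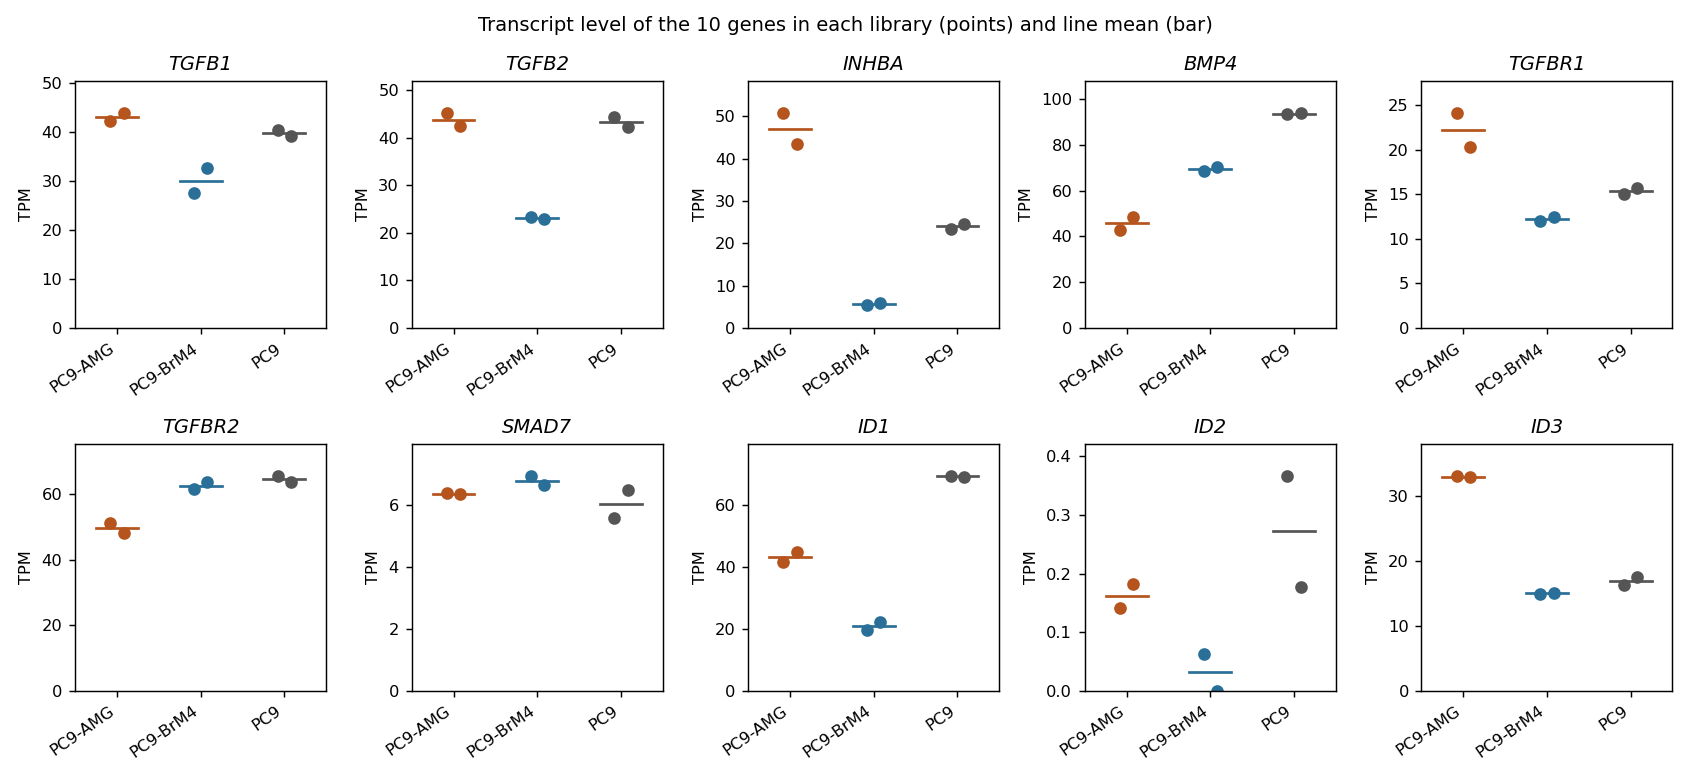
Level of each of the 10 genes in TPM (vertical axis, its own scale for each gene, starting at 0) in PC9-AMG, PC9-BrM4 and PC9. Points are libraries (2 for each line) and bars are line means. INHBA has the widest fold range between line means of the 9 tested genes, with 47.0 TPM in PC9-AMG and 5.66 TPM in PC9-BrM4, and ID2 stays under 0.4 TPM in all 6 libraries.

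**Figure D2:**
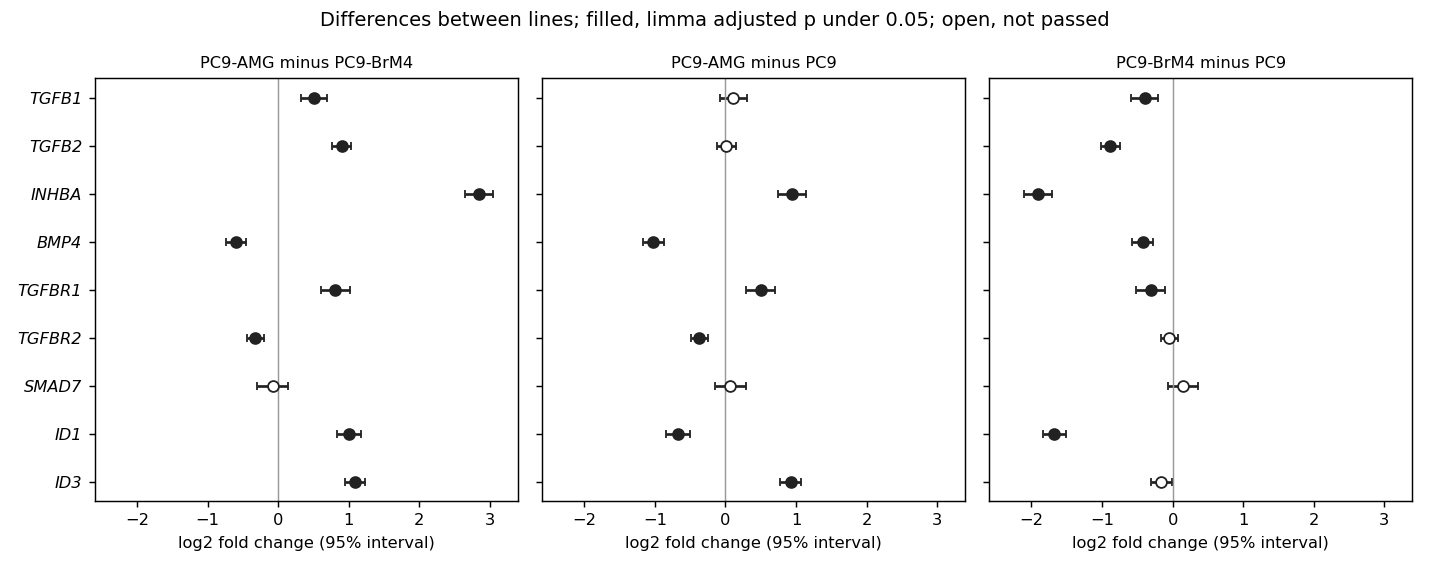
Log2 fold change of the 9 tested genes (horizontal axis, with 95% intervals from limma) in PC9-AMG and PC9-BrM4 against PC9 and in PC9-AMG against PC9-BrM4. Filled points passed an adjusted p of 0.05 and open points did not. In PC9-BrM4 against PC9 all filled points lie below 0, whereas in PC9-AMG against PC9 they lie on both sides.

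The stretch just upstream of the deposited gene model is shown for 4 genes that were all lower in PC9-BrM4 than in PC9, since these 4 have a single RefSeq start region with 200 bases clear of the model. The sequences are from RefSeq (GRCh38.p14), run 5′ to 3′ on the gene's own strand and end 1 base before the model. All 10 genes matched the RefSeq table by symbol, but the other 6 had several start regions, or fewer clear bases. Capitals mark matches on either strand to CAGAC (a SMAD binding element), GGCGCC (a GC-rich SMAD site), CANNTG (the E-box bound by helix-loop-helix factors), TGANTCA (AP-1), TGACGTCA (the cyclic AMP response element), TATAAA (the TATA box) and CCAAT. The last 2 were added after the sequences had been read. The 4 windows are TGFB1 at chr19:41353934-41354133 on the minus strand, TGFB2 at chr1:218345134-218345333 on the plus strand, INHBA at chr7:41703109-41703308 on the minus strand and ID1 at chr20:31605083-31605282 on the plus strand.
TGFB1: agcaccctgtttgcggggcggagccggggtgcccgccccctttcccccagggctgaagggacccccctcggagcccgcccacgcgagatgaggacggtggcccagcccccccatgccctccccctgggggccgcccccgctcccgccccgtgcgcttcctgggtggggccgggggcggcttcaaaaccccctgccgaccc
TGFB2: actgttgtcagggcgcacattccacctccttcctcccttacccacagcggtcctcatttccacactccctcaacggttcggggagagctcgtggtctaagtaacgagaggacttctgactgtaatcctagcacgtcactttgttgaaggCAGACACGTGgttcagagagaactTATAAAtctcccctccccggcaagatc
INHBA: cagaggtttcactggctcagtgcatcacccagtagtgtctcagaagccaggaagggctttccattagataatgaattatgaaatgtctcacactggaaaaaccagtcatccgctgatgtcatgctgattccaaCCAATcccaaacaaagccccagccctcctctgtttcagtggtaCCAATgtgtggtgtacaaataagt
ID1: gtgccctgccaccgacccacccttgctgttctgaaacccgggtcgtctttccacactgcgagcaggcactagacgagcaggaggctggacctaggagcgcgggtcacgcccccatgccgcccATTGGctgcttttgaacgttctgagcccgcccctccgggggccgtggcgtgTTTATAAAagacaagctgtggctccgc

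The 4 stretches differed in composition, with 78.0% G and C in TGFB1, 64.0% in ID1, 53.0% in TGFB2 and 46.0% in INHBA. TGFB1 held none of the 7 motifs. TGFB2 held a CAGAC that starts 51 bases before the gene model, inside a run with an overlapping CANNTG at 47, and a TATAAA at 27. INHBA held CCAAT at 67 and at 24, and ID1 held a TATAAA at 25, which overlaps a second match on the opposite strand, and a CCAAT on the opposite strand at 78. Over 35116 RefSeq windows of 200 bases the shares with a match were 31.18% for CAGAC, 14.16% for GGCGCC, 54.03% for CANNTG, 5.38% for TGANTCA, 1.57% for TGACGTCA, 8.59% for TATAAA and 28.03% for CCAAT. A match describes the letters only, and no binding was measured.

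Among the ligand genes, INHBA showed the widest fold differences. INHBA encodes the beta A subunit that forms activin A, a ligand of the SMAD2 and SMAD3 branch. Its level was 50.7 and 43.4 TPM in PC9-AMG, 5.52 and 5.80 TPM in PC9-BrM4, and 23.5 and 24.6 TPM in PC9. No line overlapped another, and PC9 lay between the derived lines. Its mean was 1.96-fold higher in PC9-AMG than in PC9 (log2 fold change 0.94, limma adjusted p = 0.000109) and 4.25-fold lower in PC9-BrM4 than in PC9 (log2 fold change -1.91, SE 0.0853, adjusted p = 6.66e-06). Between the derived lines PC9-AMG was 8.32-fold higher than PC9-BrM4 (log2 fold change 2.85, limma adjusted p = 7e-07). The gene lies on chromosome 7 (hg38, 41689003 to 41703108, minus strand), and INHBA-AS1 on the opposite strand stayed between 0.156 and 0.313 TPM. The kit marks strand, but whether strand was used in counting is not stated.

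TGFB2 encodes the TGF-beta ligand that binds its type II receptor weakly without the co-receptor betaglycan. It had 45.2 and 42.5 TPM in PC9-AMG, 23.3 and 22.8 TPM in PC9-BrM4, and 44.5 and 42.4 TPM in PC9. PC9-AMG and PC9 overlapped, while PC9-BrM4 lay below both. PC9-BrM4 was 1.88-fold lower than PC9 (log2 fold change -0.89, SE 0.058, limma adjusted p = 3.48e-05). For PC9-AMG against PC9 the log2 fold change was 0.01 with a 95% interval of -0.12 to 0.15 (limma adjusted p = 0.869), and PC9-AMG exceeded PC9-BrM4 1.90-fold (limma adjusted p = 1.71e-05). TGFB2 lies on chromosome 1 (218345334 to 218444619, plus strand). Its overlapping transcripts TGFB2-AS1 and TGFB2-OT1 stayed at 0 to 0.563 TPM and 0.12 to 2.07 TPM.

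TGFB1 encodes the most widely expressed TGF-beta ligand. It had 42.2 and 43.8 TPM in PC9-AMG, 27.5 and 32.7 TPM in PC9-BrM4, and 40.3 and 39.1 TPM in PC9. The pair of PC9-BrM4 libraries lay below the other 4, although they stood 0.24 apart on the log2 scale, more than any other of the 9 genes within that line. TGFB1 was lower in PC9-BrM4 than in PC9 (log2 fold change -0.39, SE 0.0817, limma adjusted p = 0.00611), and for PC9-AMG against PC9 the log2 fold change was 0.11 with a 95% interval of -0.08 to 0.30 (limma adjusted p = 0.278). Within 5 Mb of TGFB1 (chromosome 19, 41330531 to 41353933, minus strand), 181 of 203 other tested genes had a higher mean in PC9-AMG than in PC9, and 129 of them (63.55%) were called higher, with a median log2 fold change of 0.37. With that regional median subtracted, TGFB1 turned to -0.26 in PC9-AMG against PC9 (limma adjusted p = 0.0304). PC9-AMG exceeded PC9-BrM4 by 0.51 on the log2 scale (limma adjusted p = 0.00139), and with the regional median subtracted that call was lost (0.08, adjusted p = 0.472). The part of the region in the level of TGFB1 was not tested further.

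BMP4 encodes a ligand of the SMAD1 and SMAD5 branch. It had 42.8 and 48.5 TPM in PC9-AMG, 68.7 and 70.3 TPM in PC9-BrM4, and 93.6 and 93.9 TPM in PC9. The 3 lines were fully separated, with PC9 highest. BMP4 was 2.05-fold lower in PC9-AMG than in PC9 (log2 fold change -1.02, limma adjusted p = 2.35e-05), and in PC9-BrM4 the log2 fold change against PC9 was -0.43 (SE 0.0633, limma adjusted p = 0.00133). PC9-AMG was also lower than PC9-BrM4 (log2 difference -0.60, limma adjusted p = 0.000175). Of the 64 tested genes within 5 Mb of BMP4 (chromosome 14, 53949736 to 53956836, minus strand), 55 had a lower mean in PC9-AMG than in PC9, at a median log2 fold change of -0.24. With the regional median subtracted BMP4 stayed lower, at -0.78 in PC9-AMG (limma adjusted p = 9.60e-05) and -0.28 in PC9-BrM4 (adjusted p = 0.0105).

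**Figure D3:**
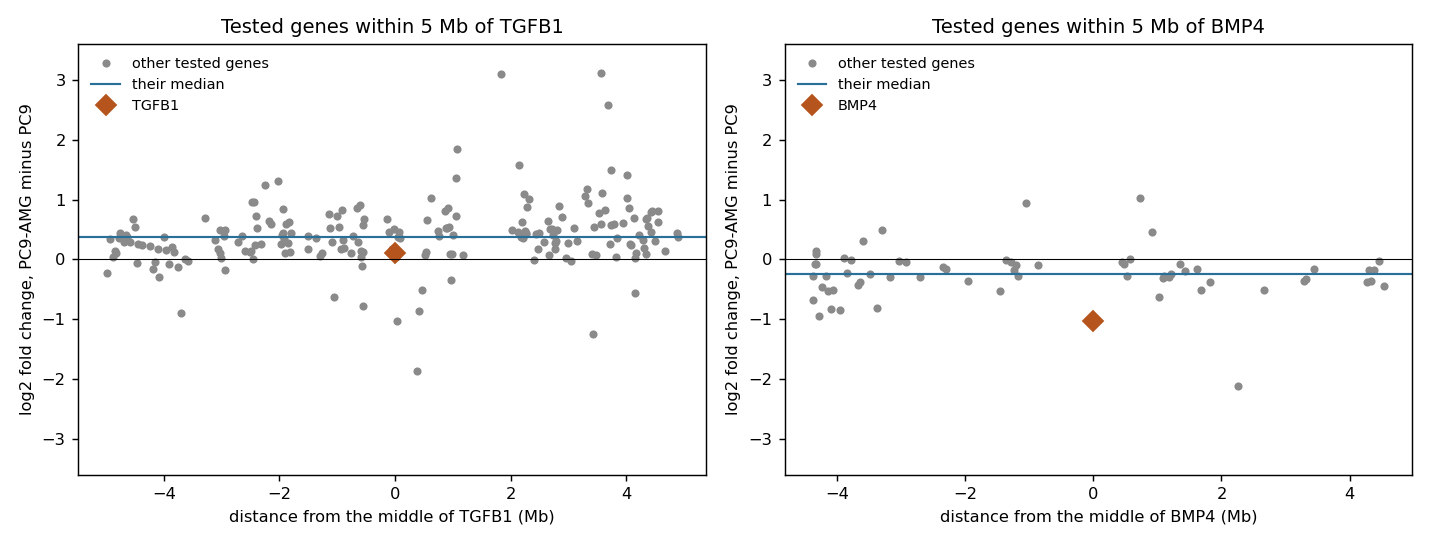
Log2 fold change in PC9-AMG against PC9 of tested genes (grey points) by distance in Mb from the middle of TGFB1 and of BMP4 (orange diamonds). Most neighbours of TGFB1 lie above 0 (181 of 203), and BMP4 lies well below its neighbours' median of -0.24.

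The balance of ligands within a library followed these differences. The ratio of INHBA to BMP4 was 1.18 and 0.894 in PC9-AMG, 0.0802 and 0.0824 in PC9-BrM4, against 0.251 and 0.262 in PC9. TGFB1 and TGFB2 together came to 87.4 and 86.3 TPM in PC9-AMG, 50.7 and 55.5 TPM in PC9-BrM4, and 84.8 and 81.5 TPM in PC9. INHBA was thus about level with BMP4 in PC9-AMG, while BMP4 was the more abundant of the pair in PC9-BrM4 and in PC9. These are ratios of transcripts and not of secreted proteins.

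Of 24 other ligand genes of the family, 10 passed the filter, and 7 of them were higher in PC9-AMG than in PC9, with 1 lower. Both PC9 libraries were under 1 TPM for 2 of these 7 (BMP7 and INHBE), and both PC9-AMG libraries for the 1 that was lower (TGFB3), so the filter admitted these 3 only through lines where they were higher, which favours a call. GDF15, a distant family member induced by cell stress, averaged 26.1 ± 3.76 TPM in PC9-AMG, 2.95 ± 0.0145 TPM in PC9-BrM4 and 6.39 ± 0.667 TPM in PC9 (SD, n = 2 each). It was higher in PC9-AMG than in PC9 (log2 fold change 1.87, limma adjusted p = 2.31e-05) and lower in PC9-BrM4 than in PC9 (-0.90, adjusted p = 0.000648), the directions seen for INHBA. INHBB, which encodes the beta B subunit of activin, had 86.4 ± 0.0294 TPM in PC9-AMG, 102 ± 4.21 TPM in PC9-BrM4 and 68.3 ± 1.72 TPM in PC9 (SD, n = 2 each), and was higher in both derived lines. INHBB therefore exceeded INHBA in every library, with INHBA to INHBB ratios of 0.587 and 0.503 in PC9-AMG, 0.0556 and 0.0551 in PC9-BrM4, against 0.338 and 0.366 in PC9. BMP7, singled out after its values were seen because its mean stayed under 5 TPM, had 1.99 and 1.87 TPM in PC9-AMG, 2.55 and 3.09 TPM in PC9-BrM4, and 0.0951 and 0.0776 TPM in PC9. In PC9-BrM4 against PC9, 4 of the 10 other ligand genes were higher, BMP7 among them, and 3 lower. Counts of this list and of those below stand against the shares of all tested genes. These were 27.8% higher and 27.7% lower in PC9-AMG against PC9, and 23.4% and 23.1% in PC9-BrM4 against PC9.

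The genes of the TGF-beta receptor pair moved in opposite directions in PC9-AMG. TGFBR1 encodes the type I TGF-beta receptor kinase. It had 24.1 and 20.4 TPM in PC9-AMG, 12.0 and 12.4 TPM in PC9-BrM4, and 15.0 and 15.8 TPM in PC9. The lines did not overlap, and PC9 lay between the derived lines as for INHBA. TGFBR1 was 1.44-fold higher in PC9-AMG than in PC9 (log2 fold change 0.50, limma adjusted p = 0.00243) and 1.82-fold higher in PC9-AMG than in PC9-BrM4 (adjusted p = 0.000211). In PC9-BrM4 against PC9 the log2 fold change was -0.31 (SE 0.0889, limma adjusted p = 0.0234). That call was lost without any one of the 4 libraries of these lines, at adjusted p between 0.0652 and 0.114, without the filter on low values (0.0570) and with the regional median subtracted (0.0972).

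TGFBR2 encodes the type II receptor kinase, which binds TGF-beta first and recruits TGFBR1. Its level was 51.3 and 48.3 TPM in PC9-AMG, 61.5 and 63.6 TPM in PC9-BrM4, and 65.5 and 63.8 TPM in PC9. PC9-AMG lay below both other lines, and the closest PC9-BrM4 and PC9 libraries were nearly level. TGFBR2 was lower in PC9-AMG than in PC9 (log2 fold change -0.37, limma adjusted p = 0.000793), and in PC9-BrM4 the log2 fold change against PC9 was -0.05 with a 95% interval of -0.17 to 0.07 (adjusted p = 0.489). PC9-AMG was also lower than PC9-BrM4 (log2 difference -0.32, limma adjusted p = 0.00139), a call lost with the regional median subtracted (-0.12, adjusted p = 0.105). The ratio of TGFBR2 to TGFBR1 transcripts was 2.13 and 2.37 in PC9-AMG, 5.13 and 5.12 in PC9-BrM4, against 4.36 and 4.05 in PC9. The type II receptor was the more abundant transcript in all 6 libraries.

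The test also covered 10 genes for other receptors and co-receptors. In PC9-AMG against PC9, 2 of them were higher and 1 lower, and in PC9-BrM4 against PC9, 3 were higher and 2 lower, each time with BMPR1B, which was under 1 TPM in both libraries of the derived line, among those lower. ENG encodes endoglin, a co-receptor best known in endothelial cells. It averaged 34.9 TPM in PC9-AMG, 39.1 TPM in PC9-BrM4 and 24.5 TPM in PC9, and was higher in both derived lines (log2 fold change 0.49 in PC9-AMG and 0.65 in PC9-BrM4). The endothelial markers CDH5, KDR, PECAM1, TIE1 and VWF summed to at most 6.07 TPM in any library, with TIE1 at 0 throughout. TGFBR3 encodes betaglycan and was named after its values were seen, because its mean stayed under 5 TPM. It averaged 2.66 TPM in PC9-AMG, 4.87 TPM in PC9-BrM4 and 2.30 TPM in PC9. TGFBR3 was higher in PC9-BrM4 than in PC9 (log2 fold change 0.83, limma adjusted p = 0.000419). In PC9-AMG against PC9 it did not pass (0.15, adjusted p = 0.219). ACVR1B, the type I receptor of activin, averaged 7.66 TPM in PC9-AMG, 4.04 TPM in PC9-BrM4 and 6.67 TPM in PC9. It was lower in PC9-BrM4 than in PC9 (log2 fold change -0.61), although with its own regional median subtracted the log2 fold change was -0.16 (limma adjusted p = 0.225).

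SMAD7, which encodes the inhibitory SMAD induced by TGF-beta as negative feedback, had the smallest fold range between line means of the 9 genes. Its PC9 libraries, however, stood 0.18 apart on the log2 scale, more than for any other of the 9 genes within that line. It had 6.36 and 6.34 TPM in PC9-AMG, 6.92 and 6.62 TPM in PC9-BrM4, and 5.58 and 6.48 TPM in PC9. The PC9-AMG values fell within the span of the PC9 libraries. The log2 fold change was 0.07 in PC9-AMG against PC9 (95% interval -0.15 to 0.29, limma adjusted p = 0.570) and 0.15 in PC9-BrM4 against PC9 (-0.07 to 0.37, adjusted p = 0.237). PC9-AMG against PC9-BrM4 gave -0.08 (95% interval -0.30 to 0.14, limma adjusted p = 0.50). Differences of up to 0.37 on the log2 scale thus lie within these intervals.

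Other intracellular components differed more. SMAD1, a BMP-branch SMAD, had 8.01 and 7.29 TPM in PC9-AMG, 23.6 and 23.1 TPM in PC9-BrM4, and 13.7 and 13.9 TPM in PC9. It was lower in PC9-AMG than in PC9 (log2 fold change -0.77, limma adjusted p = 0.000128) and higher in PC9-BrM4 than in PC9 (0.72, adjusted p = 0.000245), the reverse of the order of INHBA. SMAD3, of the TGF-beta branch, averaged 67.9 TPM in PC9-AMG, 43.8 TPM in PC9-BrM4 and 63.8 TPM in PC9, and was lower in PC9-BrM4 (log2 fold change -0.53). Of 6 other SMAD genes tested, 3 were lower and 0 higher in PC9-AMG against PC9, while 2 were lower and 1 higher in PC9-BrM4 against PC9. Among the 3 was SMAD6, which was under 1 TPM in both PC9-AMG libraries. SMURF2, a ubiquitin ligase that SMAD7 brings to the receptors, averaged 119 ± 9.41 TPM in PC9-AMG, 64.0 ± 2.17 TPM in PC9-BrM4 and 46.7 ± 3.17 TPM in PC9 (SD, n = 2 each), and rose in both derived lines (log2 fold change 1.33 in PC9-AMG and 0.45 in PC9-BrM4). PMEPA1 and SKIL, both feedback inhibitors that TGF-beta is known to induce, fell in both. PMEPA1 averaged 129.5 TPM in PC9-AMG, 132 TPM in PC9-BrM4 and 235 TPM in PC9, and SKIL averaged 39.2 TPM in PC9-AMG, 31.1 TPM in PC9-BrM4 and 52.7 TPM in PC9. Among the 13 repressors and ubiquitin ligases tested, 4 were higher and 2 lower in PC9-AMG against PC9, and 3 were higher and 4 lower in PC9-BrM4 against PC9. LDLRAD4, 1 of these 3, was under 1 TPM in both PC9 libraries and passed the filter through PC9-BrM4.

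The ID genes changed their balance in both derived lines. ID1 had 41.6 and 44.8 TPM in PC9-AMG, 19.7 and 22.4 TPM in PC9-BrM4, and 69.5 and 69.3 TPM in PC9. The 3 lines were fully separated, with PC9 highest and PC9-BrM4 lowest. ID1 was 1.61-fold lower in PC9-AMG than in PC9 (log2 fold change -0.67, limma adjusted p = 0.000208) and 3.30-fold lower in PC9-BrM4 than in PC9 (log2 fold change -1.68, SE 0.0713, adjusted p = 5.78e-06). It was 2.05-fold higher in PC9-AMG than in PC9-BrM4 (limma adjusted p = 2.66e-05). ID1 lies on chromosome 20 (31605283 to 31606514, plus strand), and its calls were retained with the regional median subtracted.

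ID3, on chromosome 1 (23557930 to 23559794, minus strand), went the other way from ID1 in PC9-AMG. Its level was 33.0 and 32.8 TPM in PC9-AMG, 14.9 and 15.0 TPM in PC9-BrM4, and 16.3 and 17.4 TPM in PC9. PC9-AMG stood clear of the other 4 libraries, which lay close together. ID3 was 1.95-fold higher in PC9-AMG than in PC9 (log2 fold change 0.93, limma adjusted p = 3.67e-05) and 2.20-fold higher than in PC9-BrM4 (adjusted p = 1.07e-05). In PC9-BrM4 against PC9 the log2 fold change was -0.16 with a 95% interval of -0.31 to -0.02, which did not pass (limma adjusted p = 0.0691), but did with FPKM (0.0376) or with the regional median subtracted (0.0460).

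ID2 was low, at 0.141 and 0.183 TPM in PC9-AMG, 0.063 and 0 TPM in PC9-BrM4, and 0.367 and 0.177 TPM in PC9, and it was not tested. The ratio of ID1 to ID3 was 1.26 and 1.36 in PC9-AMG, 1.33 and 1.49 in PC9-BrM4, against 4.27 and 3.98 in PC9. The derived lines overlapped in this ratio, and PC9 lay far above both. They came to it differently, since ID1 was lower and ID3 higher in PC9-AMG than in PC9, whereas in PC9-BrM4 ID1 alone was called lower. Summed over ID1, ID2 and ID3, the level was 74.7 and 77.8 TPM in PC9-AMG, 34.7 and 37.4 TPM in PC9-BrM4, and 86.2 and 86.9 TPM in PC9. ID1 made up 55.6% and 57.6% of that sum in PC9-AMG, 56.9% and 59.8% in PC9-BrM4, against 80.7% and 79.7% in PC9.

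**Figure D4:**
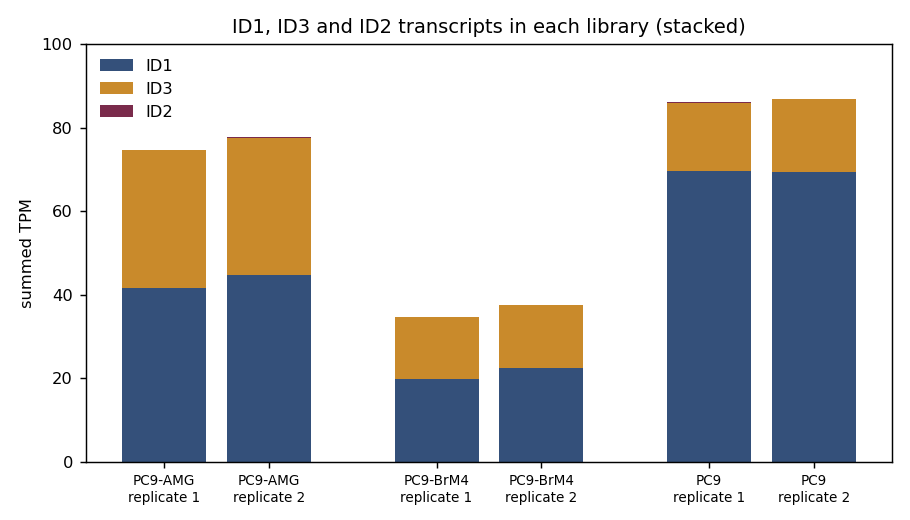
Summed TPM (vertical axis) of ID1, ID3 and ID2 in each library of PC9-AMG, PC9-BrM4 and PC9, stacked by gene. The sums lie at 74.7 and 77.8 TPM in PC9-AMG, 34.7 and 37.4 TPM in PC9-BrM4 and 86.2 and 86.9 TPM in PC9, and ID1 takes the larger share throughout.

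The transcripts of the helix-loop-helix partners of ID proteins differed by smaller amounts. Of 7 listed, 3 passed the filter. TCF3, which encodes the E proteins E12 and E47, averaged 48.0 TPM in PC9-AMG, 73.5 TPM in PC9-BrM4 and 53.8 TPM in PC9, and was higher in PC9-BrM4 than in PC9 (log2 fold change 0.44, limma adjusted p = 0.00236). TCF12, another E protein, averaged 20.9 TPM in PC9-AMG, 23.7 TPM in PC9-BrM4 and 28.2 TPM in PC9. In PC9-BrM4 the lowest summed ID level stood beside the highest TCF3 level of the 3 lines. The other partners tested were lower there than in PC9, namely TCF12 (log2 fold change -0.24, limma adjusted p = 0.0255) and HES1 (-0.21, adjusted p = 0.0287). Both were also called lower in PC9-AMG against PC9. Of 11 other genes known to respond to BMP, 4 were tested, and 1 was higher and 1 lower in each derived line against PC9. The higher one was GATA2 in both lines. It averaged 22.5 TPM in PC9-AMG, 32.9 TPM in PC9-BrM4 and 13.1 TPM in PC9, but GATA2-AS1 overlaps it on the opposite strand at 11.7 to 18.6 TPM, so its level is uncertain. The lower ones, named after their values were seen because their means stayed under 5 TPM, were SMAD6 in PC9-AMG and ID4 in PC9-BrM4. SMAD6, an inhibitory SMAD gene, had 0.716 and 0.776 TPM in PC9-AMG, 2.64 and 3.5 TPM in PC9-BrM4, and 4.62 and 3.04 TPM in PC9 (log2 fold change in PC9-AMG against PC9 -1.45, limma adjusted p = 0.000396). ID4, the remaining ID gene, had 3.62 and 3.19 TPM in PC9-AMG, 2.46 and 2.30 TPM in PC9-BrM4, and 4.42 and 3.70 TPM in PC9 (log2 fold change in PC9-BrM4 against PC9 -0.58, limma adjusted p = 0.00471).

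Secreted antagonists set how much ligand reaches the receptors. NOG encodes noggin, which binds BMP4. It had 32.5 and 29.0 TPM in PC9-AMG, 32.6 and 36.8 TPM in PC9-BrM4, and 12.8 and 11.9 TPM in PC9. Both derived lines stood well above PC9 and lay next to each other. NOG was higher in PC9-AMG (log2 fold change 1.24, limma adjusted p = 3.71e-05) and in PC9-BrM4 (1.41, adjusted p = 2.5e-05) than in PC9, and between the derived lines the difference did not pass (-0.17, adjusted p = 0.132). With the lower BMP4, the ratio of BMP4 to NOG was 1.32 and 1.67 in PC9-AMG, 2.11 and 1.91 in PC9-BrM4, against 7.30 and 7.87 in PC9. FSTL3, which encodes an activin-binding follistatin-like protein, averaged 70.4 ± 3.42 TPM in PC9-AMG, 27.0 ± 1.44 TPM in PC9-BrM4 and 43.7 ± 1.54 TPM in PC9 (SD, n = 2 each), in the same order of lines as INHBA. TWSG1, which encodes the BMP-binding protein twisted gastrulation, was lower in both derived lines, at 34.3 TPM in PC9-AMG, 44.8 TPM in PC9-BrM4 and 81.0 TPM in PC9. Of 8 antagonist genes tested, 5 were higher and 2 lower in PC9-AMG against PC9, and 3 were higher and 2 lower in PC9-BrM4 against PC9. BMPER and GREM1, 2 of the 5, were under 1 TPM in both PC9 libraries and passed the filter through PC9-AMG.

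TGF-beta is secreted in a latent form, held by latent TGF-beta binding proteins and released by integrins, proteases or thrombospondin. Of 10 such genes tested, 4 were higher and 4 lower in each derived line against PC9. LTBP2, a matrix protein of the latent-binding family, averaged 41.2 ± 1.79 TPM in PC9-AMG, 119 ± 13.9 TPM in PC9-BrM4 and 96.6 ± 1.11 TPM in PC9 (SD, n = 2 each), lower in PC9-AMG than in PC9 (log2 fold change -1.21). LTBP4, which binds latent TGF-beta 1, averaged 21.3 TPM in PC9-AMG, 9.14 TPM in PC9-BrM4 and 15.9 TPM in PC9. Its log2 fold change against PC9 was 0.40 in PC9-AMG and -0.74 in PC9-BrM4. LTBP4 lies within 5 Mb of TGFB1, whose neighbours had a median of 0.37 in PC9-AMG and -0.07 in PC9-BrM4. The part of that region in the level of LTBP4 was not tested. ITGB6, the integrin subunit that activates latent TGF-beta on epithelial cells, was lower in both derived lines, at 34.4 TPM in PC9-AMG, 33.7 TPM in PC9-BrM4 and 46.4 TPM in PC9.

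Genes known to respond to TGF-beta were mostly higher in PC9-AMG. Of 22 tested, 15 were higher and 4 lower in PC9-AMG against PC9 (median log2 fold change 0.44), and 4 were higher and 9 lower in PC9-BrM4 against PC9 (median -0.12). CDKN1A, which encodes a cell cycle inhibitor, had 71.0 and 62.1 TPM in PC9-AMG, 18.7 and 19.5 TPM in PC9-BrM4, and 27.0 and 30.2 TPM in PC9. No line overlapped another, and their order was that of INHBA. CDKN1A was higher in PC9-AMG than in PC9 (log2 fold change 1.19, limma adjusted p = 3.84e-05) and lower in PC9-BrM4 than in PC9 (-0.56, adjusted p = 0.00134). CTGF, a matricellular growth factor gene, averaged 94.4 ± 2.99 TPM in PC9-AMG, 22.0 ± 0.0884 TPM in PC9-BrM4 and 14.4 ± 0.435 TPM in PC9 (SD, n = 2 each), and so was higher in both derived lines. TGFBI, a matrix protein gene named for its induction by TGF-beta, was lower in both, at 273 TPM in PC9-AMG, 315 TPM in PC9-BrM4 and 509 TPM in PC9. TAGLN, which encodes an actin-binding protein, was higher in PC9-BrM4 than in PC9 (17.9 and 6.76 TPM, log2 fold change 1.28), and in PC9-AMG it averaged 7.77 TPM.

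Another list, of immediate early genes, was also mostly higher in PC9-AMG than in PC9. Immediate early genes rise within minutes of many stimuli and of handling. In PC9-AMG against PC9, 13 of 17 tested were higher and 1 lower, at a median log2 fold change of 0.76. Of the 13, FOSB was under 1 TPM in both PC9 libraries. The 1 called lower, named after its values were seen, was FOS. It averaged 4.53 TPM in PC9-AMG and 7.49 TPM in PC9 (log2 fold change -0.62, limma adjusted p = 0.00088). In PC9-BrM4 against PC9, 4 immediate early genes were higher and 4 lower. DUSP1, a phosphatase gene of that list, averaged 53.1 ± 9.62 TPM in PC9-AMG, 6.14 ± 0.0319 TPM in PC9-BrM4 and 9.10 ± 0.336 TPM in PC9 (SD, n = 2 each), and JUNB stands on both lists. COL1A1, a responsive gene that also marks fibroblasts, averaged 14.6 TPM in PC9-AMG, 4.05 TPM in PC9-BrM4 and 4.89 TPM in PC9, and the 8 fibroblast markers summed to 14.6 to 15.0 TPM in PC9-AMG, 3.68 to 4.45 TPM in PC9-BrM4 and 4.78 to 5.05 TPM in PC9, with 5 of them at 0 in every library as given above. COL1A1 was the only fibroblast marker tested, and it made up nearly all of these sums. The part of the immediate early genes in the levels of the responsive genes, INHBA or the ID genes was not tested.

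**Figure D5:**
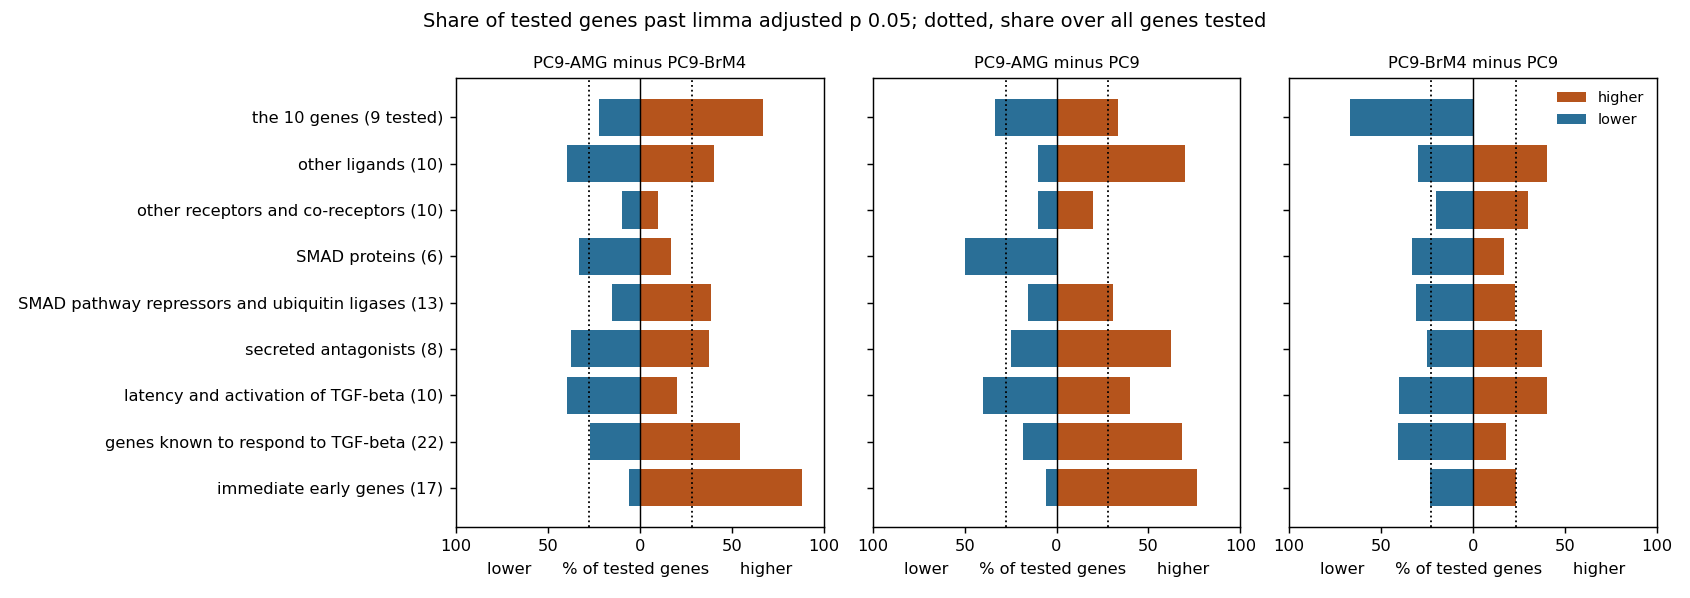
Share of tested genes of each list called higher (right) or lower (left) in percent at a limma adjusted p under 0.05, for PC9-AMG and PC9-BrM4 against PC9 and PC9-AMG against PC9-BrM4. Dotted lines give the shares over all tested genes, for example 27.8% higher and 27.7% lower in PC9-AMG against PC9, beside which 15 of 22 responsive genes were called higher.

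Across the 84 tested pathway genes outside the 10, 38 were higher and 19 lower in PC9-AMG against PC9, and 24 were higher and 29 lower in PC9-BrM4 against PC9. In PC9-AMG against PC9-BrM4, 29 were higher and 24 lower. Over all tested genes, 27.8% were higher and 27.7% lower in PC9-AMG against PC9, and 23.4% and 23.1% in PC9-BrM4 against PC9. In PC9-AMG against PC9-BrM4 these shares were 28.1% and 28%. No list was tested as a set. The lower line was under 1 TPM in both libraries for 4 of the 38 and 3 of the 19 in PC9-AMG against PC9, for 2 of the 24 and 1 of the 29 in PC9-BrM4 against PC9, and for 3 of the 29 and 4 of the 24 in PC9-AMG against PC9-BrM4. The median log2 fold change of these genes was 0.16 in PC9-AMG against PC9 and within 0.01 of 0 in the other 2 comparisons.

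By abundance among tested genes, the highest placed of the 10 in PC9 was BMP4, above 85.28% of tested genes, and in PC9-AMG it was TGFBR2, above 72.80%. In PC9-BrM4 BMP4 led again, above 79.51%. INHBA stood above 71.47% of genes in PC9-AMG, 24.68% in PC9-BrM4 and 54.46% in PC9. ID1 stood above 69.27% in PC9-AMG, 50.65% in PC9-BrM4 and 80.26% in PC9. SMAD7 kept a low place, above 25.73% of genes in PC9-AMG, 27.32% in PC9-BrM4 and 24.95% in PC9.

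The genes with the most similar profiles were found by the Euclidean distance between centred log2 profiles over the 6 libraries, among 11537 genes that reached a mean of 5 TPM in some line. With so many genes and 3 lines, close matches are easily met, and they are given as a description. For INHBA they were ALDOC, RINL and CD40, and the closest, the glycolytic aldolase gene ALDOC (distance 0.225), averaged 34.1 TPM in PC9-AMG, 3.35 TPM in PC9-BrM4 and 15.5 TPM in PC9. For ID1 they were DOCK10, RPH3AL and VILL, and DOCK10, which encodes an exchange factor for small GTPases (distance 0.133), averaged 9.30 TPM in PC9-AMG, 3.91 TPM in PC9-BrM4 and 15.1 TPM in PC9. For ID3 they included UBE2S and PALM3, and UBE2S, a ubiquitin-conjugating enzyme gene (distance 0.134), averaged 535 TPM in PC9-AMG, 265 TPM in PC9-BrM4 and 287 TPM in PC9. TGFB2 was closest to PAPSS2, ATP9A and FLJ23867, and BMP4 to TNFSF10, TTC30B and COPG2. The nearest genes were CLIP4, ULBP2 and SNAPC1 for TGFBR1, AP3B1, DDX17 and ARFGEF1 for TGFBR2, GPR107, ITGB4 and FBXW10 for TGFB1, and ERAL1 and SLC25A4 for SMAD7.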

How the data were processed

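Messenger RNA libraries (TruSeq Stranded mRNA, per the labels' protocols) were analysed from 3 lines, 2 each. The authors deposited 1 table per library with TPM, FPKM and mean coverage for each gene. Per the submitters' processing notes the build was hg38 and the tools were StringTie 1.3.4d, HISAT2 2.1.0 and bcl2fastq; the annotation release is not stated there. TPM fixes each library's total, so values are relative within a library. The deposited FPKM served an alternative and, with the deposited coverage, the depth estimate. A table of the whole series with 6 columns of per-sample values was not used, since its names do not match the PC9-AMG labels.

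Lines sharing a symbol were summed. Genes with at least 1 TPM in at least 2 of 6 libraries (14195) were fitted as log2(TPM + 1), which understates changes of low genes, with limma 3.58.1 in R 4.3.3 (1 mean per line, mean-variance trend, 3 residual degrees of freedom, Benjamini-Hochberg adjustment over all tested genes, threshold 0.05). The procedure was run on simulated data in which only a small part of the genes differed. Calls were far more common here, so that run gives no rate of false calls for these data. Exact permutation of 2 against 2 libraries cannot reach 0.05. From each pathway list up to 3 called genes per comparison were named, by size of change, provided the higher line averaged 5 TPM or more and libraries did not overlap; the text describes part of them, and some genes are not reported here. The 10 genes and the lists were chosen with earlier results of these data known. There were 18 alternative settings.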

Additional observations from a re-analysis of the deposited data

Results flagged for a closer look

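Against PC9, 2 of the genes were called in opposite directions in the derived lines, higher in PC9-AMG and lower in PC9-BrM4. For INHBA the log2 difference between the 2 effects, tested directly as PC9-AMG against PC9-BrM4, was 2.85 (limma adjusted p = 7e-07). For TGFBR1 it was 0.81 (limma adjusted p = 0.000211), and its call in PC9-BrM4 against PC9 depended on single libraries.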

How the results depend on the processing

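The counts of called genes among the 9 tested kept within 1.5 times of their values under all 18 alternatives: 5 to 7 in PC9-BrM4 against PC9 (6 as reported), 6 to 7 in PC9-AMG against PC9 (6 as reported) and 6 to 8 in PC9-AMG against PC9-BrM4 (8 as reported). The lowest count in PC9-AMG against PC9-BrM4 and the highest in PC9-AMG against PC9 came with the regional median subtracted, a setting added for the counts after the data were seen. Of the other 84 pathway genes, 42 to 55, 46 to 65 and 49 to 56 were called (53, 57 and 53 as reported). With the regional median subtracted, the sign turned for TGFB1 (-0.26) and TGFB2 (-0.086) in PC9-AMG against PC9, for SMAD7 in PC9-AMG against PC9-BrM4 (0.12) and for GDF11 in PC9-BrM4 against PC9 (0.081). TGFB2 in PC9-AMG against PC9 also turned with quantile scaling (-0.028) and with FPKM (-0.0028), and leaving out single libraries gave -0.031 to 0.056 for TGFB2 and -0.025 to 0.16 for SMAD7; neither gene had passed the test as reported, and the cause was not tested. Calls lost for TGFBR1 and gained for ID3 are given with those genes.

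Replicate numbers 1 and 2 recur in each line, but the labels tie them to no shared day or batch, and the deviations correlated at -0.0691 to -0.0277 between lines. With the replicate block 6, 6 and 8 of the 9 genes and 52, 57 and 53 of the other pathway genes were called in the same order of comparisons. With 2 libraries a line and unknown read numbers, no counting interval can be given for low genes such as ID2.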

Other observations

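The keratin markers KRT7, KRT8, KRT18 and KRT19 were all lowest in PC9-BrM4, but their highest line differed. In PC9-BrM4 against PC9 all were called lower, with log2 fold changes of -0.61, -0.27, -0.34 and -0.50 in that order. KRT7 averaged 3140 TPM in PC9-AMG, 1846 TPM in PC9-BrM4 and 2811 TPM in PC9, with PC9-AMG highest. KRT8 had the same order of lines, at 4743 TPM in PC9-AMG, 3102 TPM in PC9-BrM4 and 3735 TPM in PC9. So did KRT18, at 3814 TPM in PC9-AMG, 2357 TPM in PC9-BrM4 and 2974 TPM in PC9. KRT19 averaged 1747 TPM in PC9-AMG, 1367 TPM in PC9-BrM4 and 1935 TPM in PC9, with PC9 highest, and was lower in PC9-AMG than in PC9 (log2 fold change -0.15, limma adjusted p = 0.0188).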
